A study of Mus musculus with 19 samples.

Results

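The 10 genes of the Notch pathway followed here were measured in the deposited counts of E13.5 mouse cerebral cortex. They were the receptors *Notch1*, *Notch2* and *Notch3*, the ligands *Dll1*, *Dll3* and *Jag1*, the DNA-binding effector *Rbpj*, and the target genes *Hes1*, *Hes5* and *Hey1*. They were chosen by name, matched through their Ensembl identifiers to GENCODE symbols, and all 10 were found among 51912 genes per library. All 10 also passed the filter on low counts in each of the 3 genotype comparisons.

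Notch signaling passes between touching cells. A ligand on one cell binds a receptor on its neighbor, the receptor is cut, and its inner part enters the nucleus, where it joins RBPJ and turns on target genes of the Hes and Hey families. In the embryonic cortex these targets repress proneural genes and hold apical neural progenitor cells (NPCs, or radial glia) in a dividing state, while newborn neurons and intermediate progenitors display the ligands.

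There were 7 ctrl, 5 cKO-E and 7 dKO-E cortices, on a mixed C57BL/6 and 129 background, with 1 library per embryo. The cKO-E embryos carried *Emx1*Cre/+;*Ino80*fl/fl, which removes the chromatin remodeler INO80, and the dKO-E embryos carried *Trp53*fl/fl in addition to the same alleles, which removes p53 as well. The labels call the remaining embryos control and do not give their alleles. *Emx1*Cre acts in cortical NPCs and their progeny, so that interneurons, microglia and vessel cells in the same tissue keep both genes. The embryos came from 7 litters and carry a batch label of 1, 2 or 3, the last held by dKO-E embryo E alone. Litter 2 held dKO-E males only, and both dKO-E females, embryos A and B, came from litter 1.

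Each library held between 820915 and 8095810 counts on genes, and the median library held 2952788. Levels are given as CPM, counts scaled to a common library size by TMM over all 19 libraries. The rule for a call was an adjusted p under 0.05 from edgeR's quasi-likelihood test, with Benjamini-Hochberg adjustment across every gene in the fit, and log2 fold changes carry their standard error (SE). *Ino80* itself was higher by 0.48 on the log2 scale in cKO-E (SE 0.07, adjusted p = 7.92e-05) and by 0.62 in dKO-E (SE 0.06, adjusted p = 8.84e-07), but these counts span the whole gene and not the deleted exons, and thus check no label. *Trp53* was lower in dKO-E (-0.36, SE 0.10, adjusted p = 0.0196). Markers of cortical progenitors and excitatory neurons were present in every group, although *Sox2* and *Tubb3* were listed at 0 in all 19 libraries.

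In cKO-E, expression of *Notch1*, *Notch2*, *Hes1* and *Hey1* fell and that of *Jag1* and *Rbpj* rose. In dKO-E compared with ctrl, none of the 10 genes fell, and *Notch3* and *Rbpj* rose. Tested directly against cKO-E, dKO-E had higher *Notch1*, *Notch2*, *Notch3*, *Hey1* and *Rbpj*, and lower *Jag1*. The mutants shared no litter, so genotype and litter cannot be told apart wherever they are compared with each other. *Dll1*, *Dll3* and *Hes5* passed the test in no comparison when all embryos were fitted without a covariate.

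Of the 10 genes, 6 were called in cKO-E compared with ctrl, 4 down and 2 up, where 17.2% of the 11660 genes tested were called, 852 up and 1152 down. With total counts in place of TMM, that split over all genes became 1068 up and 910 down. In dKO-E relative to ctrl, 2 of the 10 were called, both up, against 15.5% of 11381 genes, 620 up and 1139 down (1783 up and 694 down with total counts). Between dKO-E and cKO-E, 6 of the 10 were called, 5 up and 1 down, against 15.0% of 11746 genes, 657 up and 1106 down (1064 up and 942 down with total counts). The median log2 fold change of the 10 genes was -0.36, -0.01 and 0.36 in these comparisons, and that of all genes tested was 0.02, 0.01 and 0.02. At the stricter threshold of 0.001, no member was called in cKO-E (3.38% of all genes), *Rbpj* was called in dKO-E (2.58%), and *Notch1* and *Jag1* were called between the mutants (3.13%). The comparisons share embryos and are not independent of each other. The groups did not overlap for 5 of the 10 genes between cKO-E and ctrl (8.83% of all genes tested), for 1 between dKO-E and ctrl (4.43%), and for 5 between dKO-E and cKO-E (7.16%).

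**Figure D1:**
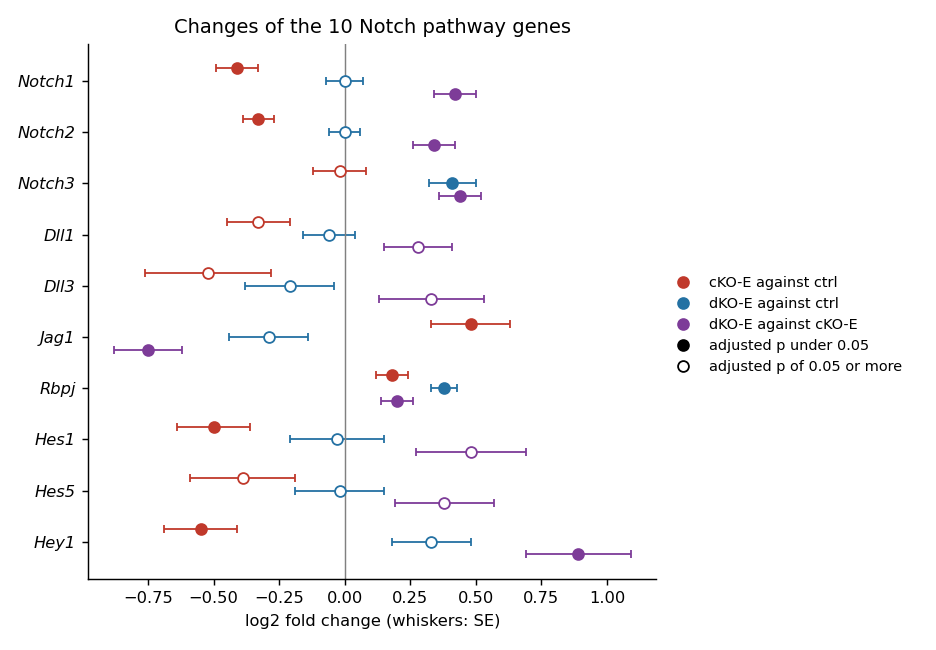
Log2 fold change of each Notch pathway gene (horizontal axis, whiskers show SE) in cKO-E against ctrl (red), dKO-E against ctrl (blue) and dKO-E against cKO-E (purple), with filled points for adjusted p under 0.05. *Notch1*, *Notch2*, *Hes1* and *Hey1* lie left of 0 in cKO-E, *Rbpj* lies right of 0 in all 3 comparisons, and *Jag1* ranges from 0.48 in cKO-E against ctrl to -0.75 in dKO-E against cKO-E.

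To compare genes with each other, CPM were divided by the length of each gene's merged exons. In ctrl, *Notch2* and *Rbpj* led with 21.2 ± 1.35 and 20.7 ± 1.36 CPM per kilobase (SD, n = 7). *Dll1* (16.0 ± 2.04), *Hes1* (14.8 ± 2.61) and *Notch1* (14.2 ± 1.30) followed, and neighbors among these first 5 genes overlapped. *Notch3* (9.66 ± 1.45), *Hes5* (9.41 ± 2.27) and *Hey1* (6.74 ± 0.736) formed the next stretch, each overlapping its neighbor, and all 7 embryos had *Notch1* above *Notch3*. *Dll3* (4.07 ± 1.20) and *Jag1* (3.24 ± 0.778) were lowest and overlapped, with *Hey1* above *Dll3* in all 7 embryos. The order of the upper genes depends on the transcripts counted in the length. With exons of the GENCODE basic set, *Rbpj* came first at 38.0 CPM per kilobase, and *Notch1* moved from the fifth place to the third at 21.3.

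The receptors fell into 2 patterns. NOTCH1 and NOTCH2 are the broadly used receptors of cortical radial glia, and both genes were low in cKO-E and at ctrl levels in dKO-E, whereas *Notch3* was at ctrl levels in cKO-E and high in dKO-E.

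*Notch1* (ENSMUSG00000026923.15) lies on the minus strand of chromosome 2, from 26457903 to 26516663 of GRCm38. Its expression in ctrl ran from 178 to 226 CPM with a median of 205. The cKO-E embryos were at 129, 136, 162, 166 and 167 CPM, all below the lowest ctrl embryo. In dKO-E it ran from 179.6 to 223 CPM with a median of 201, above every cKO-E embryo and within the range of ctrl. The log2 fold change in cKO-E was -0.41 (SE 0.08, adjusted p = 0.00209), with -0.41 in batch 1 (adjusted p = 0.00608) and -0.41 in batch 2 (adjusted p = 0.0280). For dKO-E compared with ctrl it was 0.00, with a 95% interval from -0.13 to 0.13 (adjusted p = 0.991). From cKO-E to dKO-E the gene was higher by 0.42 (SE 0.08, adjusted p = 0.000981), with 0.51 in batch 1 (adjusted p = 0.0121) and 0.25 in batch 2 (adjusted p = 0.395).

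*Notch2* (ENSMUSG00000027878.11, plus strand of chromosome 3, 98013527 to 98150361) followed the same order of groups. Its level was 214 to 256 CPM in ctrl, with a median of 223. In cKO-E the embryos were at 163, 176, 180.1, 193 and 203 CPM, again below all ctrl embryos. The dKO-E range was 209 to 272 CPM with a median of 225, above all cKO-E embryos. Its log2 fold change for cKO-E was -0.33 (SE 0.06, adjusted p = 0.00171), with -0.35 in batch 1 (adjusted p = 0.00190) and -0.30 in batch 2 (adjusted p = 0.0958). In dKO-E compared with ctrl it was 0.00 (95% interval -0.12 to 0.13, adjusted p = 0.978). Between the mutants it was 0.34 (SE 0.08, adjusted p = 0.00467), with 0.45 in batch 1 (adjusted p = 0.0169) and 0.16 in batch 2 (adjusted p = 0.674).

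*Notch3* (ENSMUSG00000038146.7, minus strand of chromosome 17, 32120820 to 32166852) encodes a receptor that is also typical of vessel mural cells. It ran from 66.7 to 92.8 CPM in ctrl with a median of 72.1, and was at 69.3, 70.2, 78.1, 80.3 and 82.3 CPM in cKO-E. In dKO-E it ran from 88.0 to 117 CPM with a median of 104, so that all 7 embryos exceeded every cKO-E embryo and 6 exceeded every ctrl embryo. Relative to ctrl the log2 fold change was -0.02 for cKO-E (95% interval -0.21 to 0.17, adjusted p = 0.938) and 0.41 for dKO-E (SE 0.09, adjusted p = 0.00425), and it was 0.44 between the mutants (SE 0.08, adjusted p = 0.00134). The ctrl embryos of batch 2 (89.0, 89.5 and 92.8 CPM) were above those of batch 1 (66.7 to 72.1 CPM). The difference between dKO-E and ctrl was 0.62 within batch 1 (adjusted p = 0.000467) but 0.05 within batch 2 (adjusted p = 0.895). Batch 2 held 3 ctrl and 2 dKO-E embryos, the latter at 88.0 and 104 CPM and both from litter 2. Why the batches differed was not tested. Between the mutants the log2 fold change was 0.56 in batch 1 (adjusted p = 0.00466) and 0.19 in batch 2 (adjusted p = 0.705). Summed markers of pericytes and mural cells were at 21.9 to 36.1 CPM in dKO-E, compared with 23.6 to 36.6 CPM in ctrl, and none of the 3 that could be tested was called in dKO-E. Their part in the *Notch3* result was not tested.

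**Figure D2:**
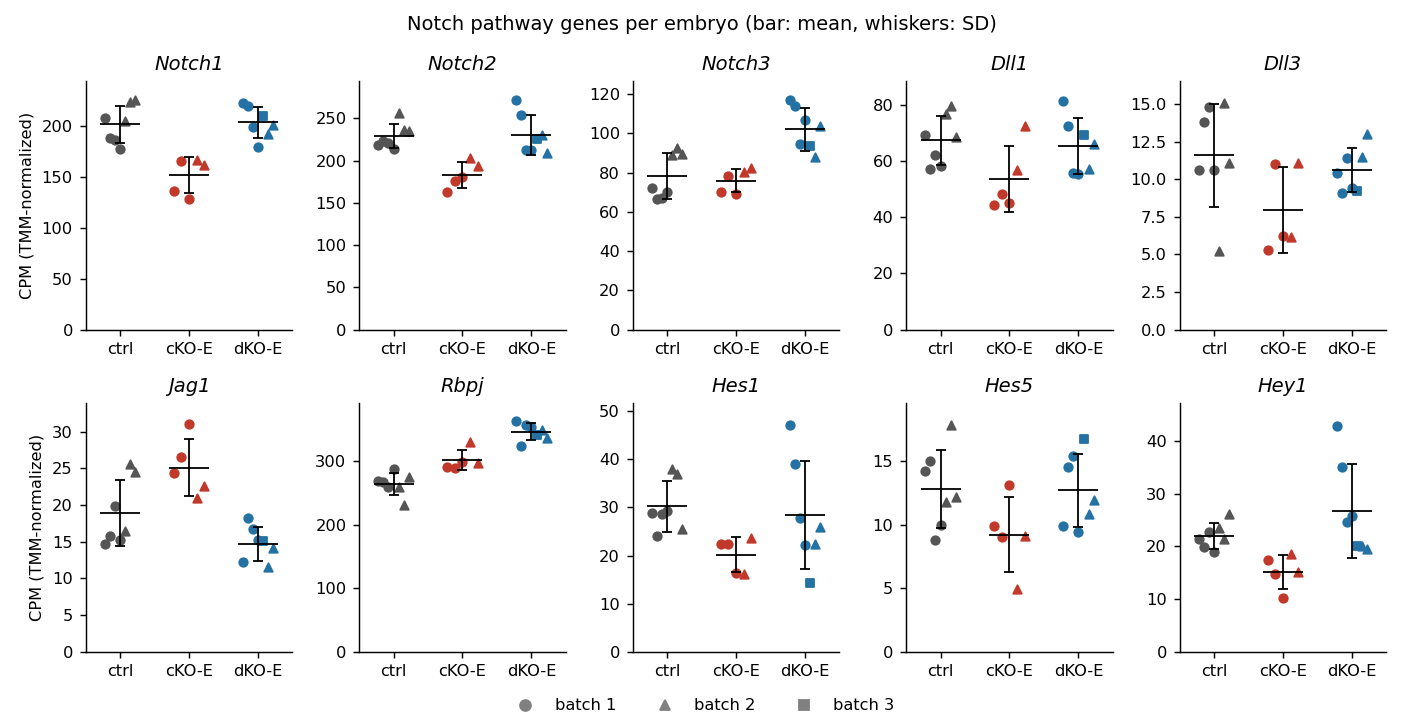
CPM of the 10 Notch pathway genes in each embryo (vertical axes from 0, 1 panel per gene), by genotype and with the batch label as the marker shape; horizontal bars and whiskers show mean and SD. The cKO-E embryos lie below all ctrl embryos for *Notch1*, *Notch2*, *Hes1* and *Hey1*, and all 7 dKO-E embryos lie above ctrl for *Rbpj*.

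Among the ligands, the Delta-like genes and *Jag1* differed. DLL1 is the ligand that intermediate progenitors and newborn neurons present to radial glia, and DLL3 is a divergent family member that acts inside the cell on its own Notch machinery. *Dll1* (ENSMUSG00000014773.13, minus strand of chromosome 17, 15367354 to 15376872) was at 57.3 to 79.6 CPM in ctrl, with a median of 68.4. The cKO-E values were 44.5, 45.2, 48.2, 56.8 and 72.5 CPM. Of the 5 cKO-E embryos, 4 were below all ctrl embryos, and the other, embryo E, lay inside their range. In dKO-E *Dll1* ran from 55.3 to 81.5 CPM with a median of 66.0. The log2 fold change of -0.33 in cKO-E did not pass the test (SE 0.12, adjusted p = 0.0826), and neither did 0.28 between the mutants (SE 0.13, adjusted p = 0.170). Without cKO-E embryo E these became -0.49 (adjusted p = 0.00462) and 0.44 (adjusted p = 0.0153), and without ctrl embryo B the first was -0.37 (adjusted p = 0.0487). In batch 1 they were -0.43 (adjusted p = 0.00725) and 0.50 (adjusted p = 0.0427), and in batch 2 -0.15 (adjusted p = 0.642) and -0.18 (adjusted p = 0.772). With sex as a covariate they were -0.38 (adjusted p = 0.0284) and 0.44 (adjusted p = 0.0130), where the only dKO-E females were littermates. With shared litters as a block the first was -0.29 (adjusted p = 0.142). For dKO-E compared with ctrl the log2 fold change was -0.06 (95% interval -0.25 to 0.14, adjusted p = 0.758).

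*Dll3* (ENSMUSG00000003436.11, minus strand of chromosome 7, 28293553 to 28302238) was among the rarest of the 10, with as few as 5 counts in a library. It ran from 5.23 to 15.1 CPM in ctrl, was at 5.27, 6.18, 6.20, 11.0 and 11.1 CPM in cKO-E, and ran from 9.08 to 13.0 CPM in dKO-E. All 3 groups overlapped. Log2 fold changes were -0.52 (SE 0.24, adjusted p = 0.149) for cKO-E, -0.21 (SE 0.17, adjusted p = 0.440) for dKO-E and 0.33 (SE 0.20, adjusted p = 0.315) between the mutants. Differences of this size were not detectable at this depth.

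*Jag1* (ENSMUSG00000027276.7, minus strand of chromosome 2, 137081456 to 137116644) encodes a ligand of the second, Serrate-like class. It ran from 14.7 to 25.6 CPM in ctrl with a median of 16.4, was at 21.0, 22.6, 24.4, 26.5 and 31.0 CPM in cKO-E, and ran from 11.5 to 18.2 CPM in dKO-E with a median of 15.1. All dKO-E embryos were therefore below all cKO-E embryos, while cKO-E and ctrl overlapped. Between the mutants the log2 fold change was -0.75 (SE 0.13, adjusted p = 0.000738), with -0.77 in batch 1 (adjusted p = 0.00962) and -0.85 in batch 2 (adjusted p = 0.189). The rise in cKO-E was less firm, at 0.48 (SE 0.15, adjusted p = 0.0383). It was 0.72 in batch 1 (adjusted p = 0.00477) and -0.02 in batch 2 (adjusted p = 0.986), and with the litters that ctrl and cKO-E share as a block it was 0.41 (adjusted p = 0.148). Leaving out any of 7 single embryos, ctrl A, B, D or F or cKO-E A, B or C, ended the call, with log2 fold changes from 0.39 to 0.48 and adjusted p from 0.0601 to 0.126. For dKO-E compared with ctrl, the value was -0.29 (SE 0.15, adjusted p = 0.195).

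*Rbpj* (ENSMUSG00000039191.12, plus strand of chromosome 5, 53466152 to 53657362) encodes the protein through which all Notch receptors reach DNA. Its medians stepped up from ctrl to cKO-E to dKO-E. Its expression ran from 231 to 287 CPM in ctrl with a median of 267. The cKO-E embryos were at 289, 291, 297, 298 and 329 CPM, just above the highest ctrl embryo. In dKO-E it ran from 324 to 362 CPM with a median of 348, and 6 of the 7 embryos exceeded all cKO-E embryos. The log2 fold change in dKO-E was 0.38 (SE 0.05, adjusted p = 6.59e-05), with 0.35 in batch 1 (adjusted p = 0.00486) and 0.42 in batch 2 (adjusted p = 0.0309). In cKO-E it was 0.18 (SE 0.06, adjusted p = 0.0397), with 0.10 in batch 1 (adjusted p = 0.311) and 0.29 in batch 2 (adjusted p = 0.128). That call was lost with the shared litters as a block (0.17, adjusted p = 0.149), and it was lost when any 1 of 9 embryos was left out (ctrl A, C, F or H or any cKO-E embryo), with adjusted p from 0.0548 to 0.110. Between the mutants it was 0.20 (SE 0.06, adjusted p = 0.0181), with 0.25 in batch 1 (adjusted p = 0.0652) and 0.13 in batch 2 (adjusted p = 0.720), and without cKO-E embryo B it was 0.19 (adjusted p = 0.0561). The processed pseudogenes *Rbpj-ps1* and *Rbpj-ps3* held 5 and 59 counts over all libraries, next to 17906 for *Rbpj*.

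The target genes are transcriptional repressors of the basic helix-loop-helix class. *Hes1* (ENSMUSG00000022528.7, plus strand of chromosome 16, 30064384 to 30067796) ran from 24.1 to 38.0 CPM in ctrl, with a median of 28.9. In cKO-E it was at 16.1, 16.4, 22.4, 22.5 and 23.6 CPM, below every ctrl embryo. The dKO-E embryos spread from 14.2 to 47.1 CPM with a median of 25.9, and the highest were embryos A (47.1) and B (39.1). Its log2 fold change for cKO-E was -0.50 (SE 0.14, adjusted p = 0.0170), with -0.43 in batch 1 (adjusted p = 0.0640) and -0.64 in batch 2 (adjusted p = 0.147), and without cKO-E embryo C it was -0.42 (adjusted p = 0.0617). For dKO-E against ctrl it was -0.03 (95% interval -0.38 to 0.32, adjusted p = 0.939), with 0.24 in batch 1 and -0.52 in batch 2 (adjusted p = 0.438 and 0.241). Between the mutants the value of 0.48 did not pass (SE 0.21, adjusted p = 0.138). With sex as a covariate it was 0.82 (adjusted p = 0.000605). Embryos A and B were littermates and the only dKO-E females, so sex was not fully separated from litter in that fit.

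*Hey1* (ENSMUSG00000040289.8, minus strand of chromosome 3, 8663359 to 8667256) resembled *Hes1* with a clearer gain in dKO-E. It ran from 18.9 to 26.1 CPM in ctrl with a median of 21.5, and was at 10.2, 14.7, 15.2, 17.5 and 18.5 CPM in cKO-E. All cKO-E embryos were below all ctrl embryos. In dKO-E it ran from 19.5 to 42.9 CPM with a median of 24.6, above all cKO-E embryos, and embryos A (42.9) and B (35.1) were again the highest. The log2 fold change in cKO-E was -0.55 (SE 0.14, adjusted p = 0.0105), with -0.55 in batch 1 (adjusted p = 0.0462) and -0.55 in batch 2 (adjusted p = 0.213). Between the mutants it was 0.89 (SE 0.20, adjusted p = 0.00449), the largest change among the 10 genes, with 1.13 in batch 1 (adjusted p = 0.0101) and 0.29 in batch 2 (adjusted p = 0.794). In dKO-E relative to ctrl the value of 0.33 did not pass (SE 0.15, adjusted p = 0.146). It was 0.56 in batch 1 (adjusted p = 0.0426) and -0.25 in batch 2 (adjusted p = 0.606), and with sex as a covariate it was 0.42 (adjusted p = 0.0273). As for *Hes1*, the fit with sex did not fully separate it from litter, since embryos A and B were the only dKO-E females. Summed meningeal markers were at 95.0 CPM in embryo B and 8.48 CPM in embryo A, where the dKO-E median was 20.5 CPM. They were at 66.1 CPM in embryo C and 45.2 CPM in embryo E, whose *Hey1* was at 24.6 and 20.1 CPM. The part of these markers in the *Hey1* values was not tested.

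*Hes5* (ENSMUSG00000048001.7, plus strand of chromosome 4, 154960923 to 154962371) is a classical Notch target of radial glia. It was rare here, with 4 to 125 counts per library. It ran from 8.80 to 17.8 CPM in ctrl, was at 4.94, 9.02, 9.11, 9.89 and 13.1 CPM in cKO-E, and ran from 9.41 to 16.7 CPM in dKO-E. The 3 groups overlapped. The log2 fold changes were -0.39 (SE 0.20, adjusted p = 0.201) in cKO-E, -0.02 (SE 0.17, adjusted p = 0.956) in dKO-E and 0.38 (SE 0.19, adjusted p = 0.220) between the mutants, with a 95% interval from -0.79 to 0.00 for the first.

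RBPJ binds DNA at the letters GTGGGAA, whose core is TGGGAA. Both strings were looked for on both strands of the RefSeq promoters of GRCm38, which reach from 250 bases before a gene's start to 50 after it. Promoters were listed for 8 of the 10 genes, and *Hes1* and *Hey1* had no entry. GTGGGAA was found in 6.38% of all 32851 promoters and in 1 of these 8 genes, *Hes5*. The core was found in 25.6% of all promoters and in *Hes5* and *Rbpj*. The *Hes5* stretch is shown because it holds GTGGGAA on either strand, and the *Rbpj* stretch because it holds the core on either strand in the gene that rose in both mutants. RefSeq lists 2 promoters for *Rbpj*, and both starts lie inside the gene as GENCODE annotates it, downstream of the gene's first base given above. Both stretches are written 5′ to 3′ on the plus strand, with the matching letters in capitals.
Hes5, chr4:154960673-154960922, 250 to 1 bases before the start: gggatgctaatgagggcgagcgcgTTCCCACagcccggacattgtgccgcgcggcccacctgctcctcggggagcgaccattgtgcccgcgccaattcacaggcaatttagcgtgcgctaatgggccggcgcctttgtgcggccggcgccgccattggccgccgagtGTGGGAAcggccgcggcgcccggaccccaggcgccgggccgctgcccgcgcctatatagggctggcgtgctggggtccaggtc
Rbpj, chr5:53590186-53590295, 160 to 51 bases before the upstream one of 2 listed starts: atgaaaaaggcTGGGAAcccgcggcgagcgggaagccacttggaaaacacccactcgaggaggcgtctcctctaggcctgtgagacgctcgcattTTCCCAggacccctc
The promoter entries of *Notch1*, *Notch2*, *Notch3*, *Dll1*, *Dll3* and *Jag1* held neither string in this window.

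Beyond the 10 genes, 70 others with a known part in the pathway were followed, of which 61 could be tested in each comparison with ctrl and 62 between the mutants. In cKO-E, 17 of the 61 fell and 3 rose, where 9.88% of all genes tested fell and 7.31% rose. In dKO-E compared with ctrl, 8 of the 61 fell and 1 rose, where 1139 of all 11381 genes tested fell and 620 (5.45%) rose. Of 62 genes compared between the mutants, dKO-E had 4 higher and 5 lower, against 5.59% and 9.42%. The median log2 fold change of the list was -0.09, -0.06 and 0.11.

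Of the 17 genes that fell in cKO-E, 9 were nuclear partners of the pathway. Coactivators join RBPJ and the cut receptor on DNA, and 4 of 7 fell, where 9.88% of all genes tested fell. The median log2 fold change of the 7 was -0.29. Those that fell were the Mastermind genes *Maml1* (-0.38, adjusted p = 0.00630) and *Maml3* (-0.29, adjusted p = 0.0188), *Snw1* (-0.44, adjusted p = 0.00260) and the histone acetyltransferase gene *Ep300* (-0.40, adjusted p = 8.53e-05). For dKO-E against ctrl the values were -0.09 for *Maml1* (adjusted p = 0.429), -0.24 for *Maml3* (adjusted p = 0.00876), -0.62 for *Snw1* (adjusted p = 4.69e-05) and -0.34 for *Ep300* (adjusted p = 0.000214). *Kat2a*, another acetyltransferase gene, rose in dKO-E (0.38, adjusted p = 0.0377) and was at -0.04 in cKO-E (adjusted p = 0.888). Between the mutants *Maml1* was higher by 0.30 (adjusted p = 0.0109) and *Kat2a* by 0.43 (adjusted p = 0.0174) in dKO-E.

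Corepressors hold RBPJ targets silent when no receptor is cut, and 5 of 12 tested fell in cKO-E, where 9.88% of all genes tested fell. Of the 12, 4 were above 0, and their median log2 fold change was -0.09. *Ncor1* ran from 480.2 to 574 CPM in ctrl, from 322 to 361 CPM in cKO-E and from 292 to 333 CPM in dKO-E, so that neither mutant overlapped ctrl. *Ncor1* thus had log2 fold changes of -0.65 for cKO-E (SE 0.06, adjusted p = 1.49e-06), -0.77 for dKO-E (SE 0.05, adjusted p = 1.11e-08) and -0.11 between them (adjusted p = 0.211). *L3mbtl3*, whose product binds RBPJ, fell by 0.56 on the log2 scale in cKO-E (adjusted p = 0.000166), and its log2 fold change for dKO-E was -0.44 (adjusted p = 0.000322). *Spen* (-0.19, adjusted p = 0.0274) and the Groucho-family gene *Tle3* (-0.23, adjusted p = 0.0208) fell in cKO-E. In dKO-E they were at -0.07 and -0.10, with adjusted p of 0.384 and 0.242.

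INO80 is a known partner of the transcription factor YY1, and the letters AAGATGGCG of the YY1 motif were therefore looked for on both strands of the same promoters. They were found in 1.40% of all promoters and in none of the 8 members with a promoter entry. Of the 70 other pathway genes, *Ncor1*, *Maml1* and *Adam17* held them, but how many of the 70 had an entry was not counted. The stretches of *Ncor1* and *Maml1*, which both fell in cKO-E, are shown for that reason, 5′ to 3′ on the minus strand of chromosome 11 and just downstream of the listed start.
Ncor1, chr11:62457289-62457317: gggttgaggcAAGATGGCGgctaaggtgg
Maml1, chr11:50292304-50292332: aaacaattttAAGATGGCGgcggcagcgg
*Adam17*, which cuts cell-surface proteins including Notch, was not called in any comparison.

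Some genes that modify, cut or turn over the receptor also fell in cKO-E, where 9.88% of all genes tested fell. Of 7 sugar transferases, *Mfng*, one of the Fringe genes that tune which ligand a receptor prefers (-0.39, adjusted p = 0.0355), and *Xxylt1* (-0.38, adjusted p = 0.00707) fell, and in dKO-E compared with ctrl they were at -0.21 (adjusted p = 0.122) and -0.24 (adjusted p = 0.0242). *Pofut1*, which adds fucose to the receptor, exceeded its cKO-E level in dKO-E (0.28, adjusted p = 0.0232). Of 8 cleavage genes tested, whose median log2 fold change in cKO-E was 0.01, only *Ncstn*, a subunit of the γ-secretase that releases the receptor's inner part, was called, with -0.35 for cKO-E (adjusted p = 0.0123) and -0.27 for dKO-E (adjusted p = 0.0370). Of 12 genes for receptor inhibition and turnover, *Numb* (-0.33, adjusted p = 0.000534), *Nedd4* (-0.24, adjusted p = 0.0242) and *Dtx3l* (-0.90, adjusted p = 0.0135) fell in cKO-E. In dKO-E relative to ctrl *Numb* was at -0.17 (adjusted p = 0.0498), *Nedd4* at -0.05 (adjusted p = 0.650) and *Dtx3l* at -0.44 (adjusted p = 0.180). *Dtx3l* was rare, at 9.37 to 16.0 CPM in ctrl and 3.71 to 9.02 CPM in cKO-E, with as few as 3 counts. Its fall in cKO-E was not called with shared litters as a block (-0.77, adjusted p = 0.0747), in batch 1 (-0.78, adjusted p = 0.0650) or in batch 2 (-1.05, adjusted p = 0.104). The proneural gene *Neurog2*, which drives NPCs toward neurons and switches on *Dll1*, fell in cKO-E too (-0.39, adjusted p = 0.00557), and was at -0.10 in dKO-E (adjusted p = 0.518).

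The 3 other pathway genes that rose in cKO-E were *Jag2* and *Dner*, the 2 of 5 listed ligands that could be tested, and *Neurl1a*, 1 of 6 genes for ligand uptake. *Jag2* ran from 3.27 to 8.11 CPM in ctrl and was at 7.41 to 13.2 CPM in cKO-E (log2 fold change 1.03, SE 0.23, adjusted p = 0.00501). *Dner*, a Notch-binding gene of neurons, rose from 172 ± 47.7 CPM (SD, n = 7) to 248 ± 30.6 CPM (SD, n = 5), or 0.51 on the log2 scale (SE 0.15, adjusted p = 0.0299). *Neurl1a*, a ubiquitin ligase gene for ligand uptake, rose by 0.92 (SE 0.23, adjusted p = 0.0108). In dKO-E *Dner* was at 113 to 176 CPM, below all cKO-E embryos (-0.81 between the mutants, SE 0.10, adjusted p = 2.07e-05). *Neurl1a* (-1.03, adjusted p = 0.00356), *Neurl1b* (-0.56, adjusted p = 0.0167), *Epn2* (-0.29, adjusted p = 0.0440) and the turnover gene *Dtx1* (-0.56, adjusted p = 0.0173) were likewise lower in dKO-E, and *Nedd4* was higher (0.20, adjusted p = 0.0440). *Jag2* was at -0.56 there (adjusted p = 0.0722). Neither the feedback target *Nrarp*, the most abundant of the other targets at 24.2 ± 4.48 CPM in ctrl (SD, n = 7), nor the remaining receptor gene *Notch4* at 4.74 ± 1.87 CPM was called in any comparison.

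**Figure D3:**
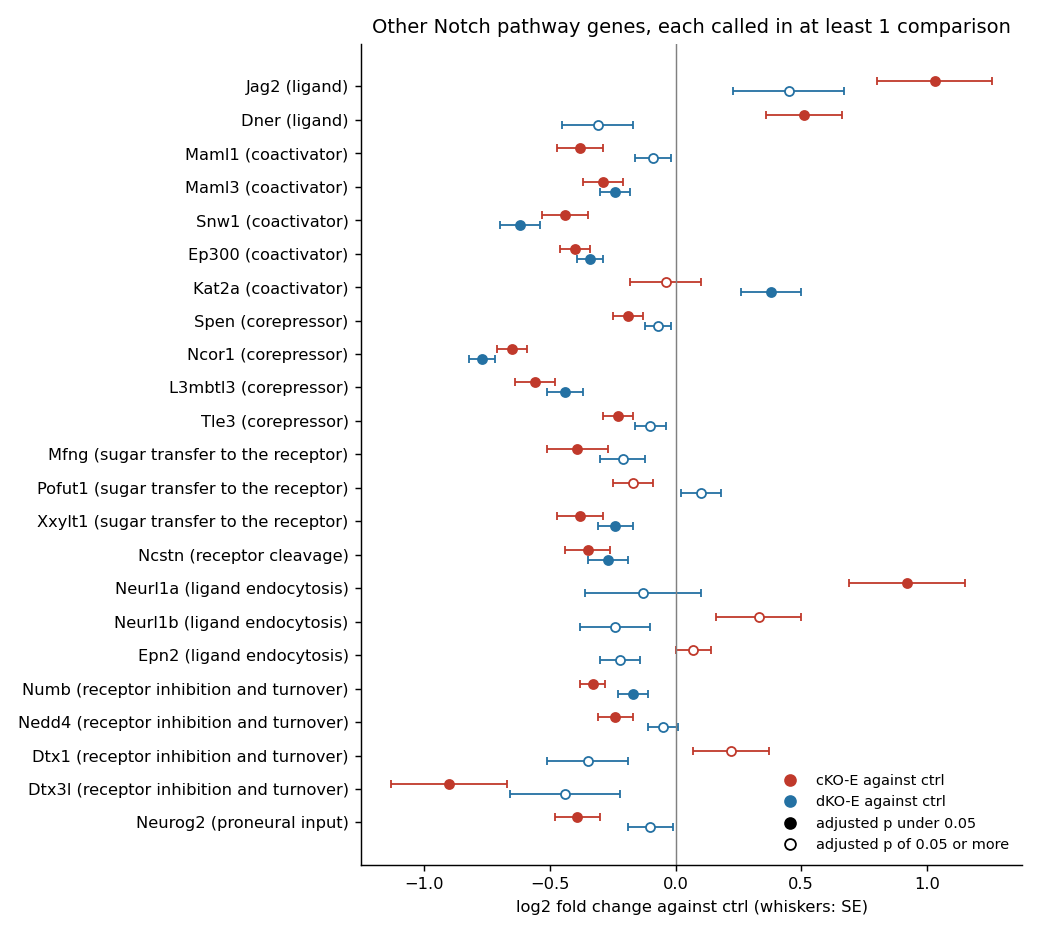
Log2 fold changes against ctrl (horizontal axis, whiskers show SE) of the other pathway genes named in the text, each called in at least 1 comparison, for cKO-E (red) and dKO-E (blue), with filled points for adjusted p under 0.05 and roles in brackets. Among these genes, chosen for being called, coactivators and corepressors lie mostly left of 0, while *Jag2* (1.03), *Dner* (0.51) and *Neurl1a* (0.92) lie right of 0 in cKO-E. Of all 12 corepressors tested, 4 were above 0 in cKO-E and 5 in dKO-E, and of all 7 coactivators 0 and 1.

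These calls varied in how firmly they held. In cKO-E, 8 of the 20 ended without cKO-E embryo C (among them *Dner*, *Maml3*, *Spen*, *Mfng*, *Neurl1a* and *Nedd4*, with adjusted p from 0.0506 for *Neurl1a* to 0.106 for *Mfng*), other single embryos ended some of these 8, and 12 held in every such fit. With shared litters as a block, 8 of the 20 were lost in cKO-E and 7 of the 9 in dKO-E compared with ctrl, where litter 1 alone holds both genotypes. In dKO-E compared with ctrl, single embryos ended the calls of *Kat2a*, *Xxylt1*, *Ncstn* and *Numb*, with adjusted p of at most 0.114, and between the mutants those of *Kat2a*, *Pofut1*, *Neurl1b*, *Epn2*, *Nedd4* and *Dtx1*, with adjusted p of at most 0.139. Reads of overlapping genes on the opposite strand could not be told apart if counting ignored strand, which the sources used here do not state. *Ncstn* overlaps *Copa*, which held 390.0% of its counts, *Dtx3l* overlaps *Parp9* (62.4%), and *Ncor1*, *Snw1* and *Spen* overlap *Ttc19*, *Slirp* and *Zbtb17* (16.4%, 16.1% and 16.7%). Among the 10 members, overlapping genes held at most 2.41% of the member's counts.

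Cell-type markers differed between the groups as well, and in bulk tissue fewer cells of a type and less RNA per cell cannot be told apart. Of 10 apical progenitor markers tested in cKO-E, the stem-cell surface gene *Prom1* (-0.64, adjusted p = 0.000278), *Sox9* (-0.42, adjusted p = 0.00192), *Nes* (-0.34, adjusted p = 0.00943) and *Pax6* (-0.35, adjusted p = 0.0211) fell, and *Fabp7* rose (0.56, adjusted p = 0.000182). Their summed level overlapped between all groups. In dKO-E relative to ctrl, *Prom1* (-0.40, adjusted p = 0.00113) and *Vim* (-0.23, adjusted p = 0.0376) fell, and *Sox9* was at -0.07 (adjusted p = 0.705). All 5 Cajal-Retzius markers tested rose in cKO-E, and their summed level over all 7 was 836 to 957 CPM there, 507 to 674 CPM in ctrl and 451 to 642 CPM in dKO-E. The summed level of all 14 microglial markers was 49.3 to 71.9 CPM in cKO-E. It was 19.9 to 37.8 CPM in ctrl, where *Tmem119* and *Trem2* were at 0, and 16.0 to 26.0 CPM in dKO-E, where *Tmem119* was at 0. The 5 that passed the filter in cKO-E against ctrl all rose, but the filter favored that outcome. *Csf1r*, *Mpeg1* and *Dock2* held at most 8, 4 and 10 counts in a ctrl library. They passed through their cKO-E levels and could not be tested in dKO-E against ctrl. Of 11 excitatory neuron markers tested, 2 fell in cKO-E and 4 fell in dKO-E compared with ctrl. Among all genes tested, 9.88% fell and 7.31% rose in cKO-E, and 1139 of 11381 fell in dKO-E. Sums for cortical hem and choroid plexus (63.0 to 142 CPM in cKO-E and 30.2 to 65.7 CPM in ctrl) and for subpallium and interneurons (89.1 to 136 CPM in cKO-E and 37.9 to 106 CPM in ctrl) were shifted upward with some overlap. The part of these markers in the lower *Notch1*, *Notch2*, *Hes1* and *Hey1* and in the higher *Jag1*, *Jag2* and *Dner* of cKO-E was not tested.

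**Figure D4:**
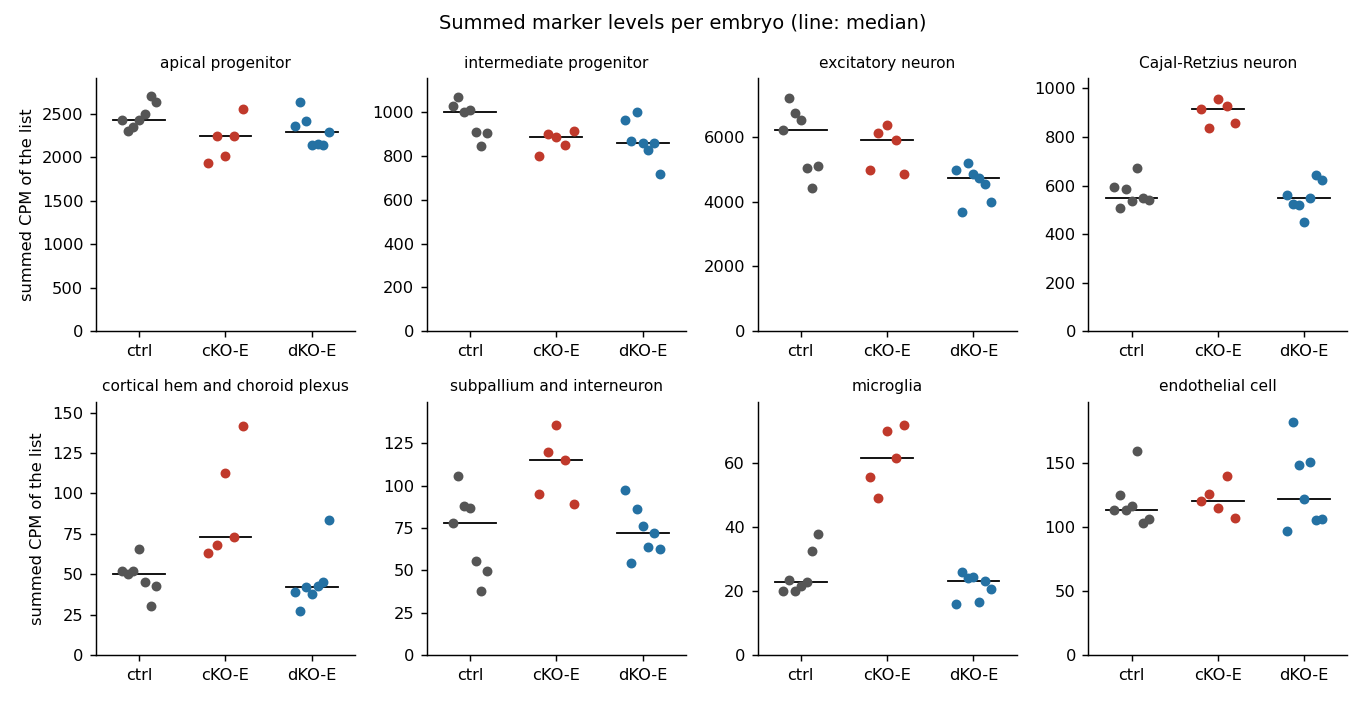
Summed CPM of 8 marker lists in each embryo by genotype (vertical axes from 0, lines show medians). All cKO-E embryos lie above ctrl and dKO-E for the Cajal-Retzius list (836 to 957 CPM in cKO-E) and the microglial list (49.3 to 71.9 CPM), while the progenitor and endothelial lists overlap.

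Across the 19 libraries, the genes most like each called member were found by Pearson's r of log2(CPM + 0.5) over 7386 genes with a mean of at least 20 CPM. The libraries share genotype, batch and depth, so these values describe this set of libraries only. *Notch1* was closest to *Ttyh1* (0.95), *Sox13* (0.94) and *Ptpru* (0.93), and *Notch2* to *Fhl1* (0.92), the planar polarity gene *Vangl2* (0.91) and the ephrin receptor gene *Ephb2* (0.90). *Notch3* was closest to the DNA replication genes *Mcm5* (0.94) and *Cdc45* (0.91) and to the nuclear pore gene *Nup155* (0.92). *Hes1* was closest to *Smo*, the transducer of Hedgehog signaling (0.89), the Wnt effector gene *Tcf7l2* (0.89) and *Etv6* (0.85). *Hey1* was closest to *Ankrd11* (0.91), the splicing factor gene *Srsf4* (0.89) and *Usf3* (0.85). *Rbpj* was closest to *Map2k5* (0.92), *Dhdds* (0.88) and *Ppp4r1l-ps* (0.88). The closest matches of *Jag1* were weaker, namely *Thsd7b* (0.78), *Pcsk2* (0.77) and *Ano3* (0.77).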

How the data were processed

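Cortical RNA of 19 E13.5 embryos was sequenced by Click-seq, which primes rRNA-depleted total RNA at random and tags molecules with unique molecular identifiers (UMIs). The authors deposited whole-number counts per gene and library. The submitters' processing notes name bcl2fastq 2.17, UMI-tools 0.5.3, cutadapt 1.13, STAR 2.5.2a, HTSeq 0.6.1p1, edgeR 3.20.9 and the GRCm38 build. The GENCODE release and the strand setting of the counting are not given in the sources used here. Rows naming no gene held 23.3% to 31.8% of reads and were left out.

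Genotypes were compared by edgeR 4.0.16 (R 4.3.3) with filterByExpr at a minimum count of 10, TMM factors and quasi-likelihood tests, with Benjamini-Hochberg adjustment across every gene in the fit. The SE was the log2 fold change divided by the square root of F, and 95% intervals were 1.96 SE to either side. Coordinates and exon lengths came from GENCODE and promoters from RefSeq (GRCm38.p6). The fit was tested on simulated data. Within groups, the 52 pairs of libraries differed by more than sampling noise (chi-square per degree of freedom 1.42 to 11.1).

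The labels tie embryos to litters: ctrl shares litters 4, 5 and 7 with cKO-E and litter 1 with dKO-E, so litter was tried as a block. Deviations from the group means correlated from -0.609 to 0.592 over the 11 same-litter pairs across genotypes. Alternatives included other tests, scalings, filters and covariates, each batch alone, the study's threshold of 0.001 and leaving out each embryo. The text names all 10 members, the other pathway genes called in any comparison, and the most abundant otherwise, apart from a few results that are not reported here. Members and lists were chosen with earlier results of these data known.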

Additional observations from a re-analysis of the deposited data

Results flagged for a closer look

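Single embryos stood apart from their group in 3 of 111 groups of embryos, which covered 37 genes, where chance gives about 1 in 20. For *Rbpj*, cKO-E embryo D was at 329 CPM and the other 4 were between 289 and 298 CPM. For *Maml1*, dKO-E embryo G was at 53.0 CPM, below the 59.3 to 63.6 CPM of the others. For *Mfng*, ctrl embryo D was at 41.5 CPM, below the 50.1 to 55.3 CPM of the others.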

How the results depend on the processing

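Depth limited *Dll3*, which had no value in any comparison when at least 10 counts were required in every library, and *Hes5*, which had none in the comparisons with cKO-E. Batch 2 held only 2 or 3 embryos of each genotype. The cause of the changes below was not tested. Leaving out the 3 shallowest libraries and the basic-set exon lengths were chosen after seeing the data.

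In cKO-E compared with ctrl, the 2 members called up became 1 with all genes of at least 1 count, with the title letter as a block and in batch 1, and 0 with litter as a block, in batch 2 and at 0.001. The 4 called down became 1 in batch 2 and 0 at 0.001. With sex as a covariate, *Dll1* was also called down (adjusted p = 0.0284). With the letter block, *Hes1* (adjusted p = 0.0569) and *Hey1* (0.0703) lost their calls, and *Dll1* (0.0242) and *Dll3* (0.0252) were called down. In batch 1, *Hes1* lost its call (adjusted p = 0.0640) and *Dll1* was called down (0.00725). Of the other pathway genes, the 3 up became 1 with at least 10 counts in every library and in batch 2, and 0 at 0.001. The 17 down became 9 with the litter block, 4 in batch 2 and 4 at 0.001. Leaving out 1 embryo gave 0 to 2 members up, 3 to 5 down, 1 to 4 other genes up and 11 to 18 down.

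In dKO-E compared with ctrl, the 2 members up became 1 in batch 2 and 1 at 0.001. *Hey1* was also called up in batch 1 (adjusted p = 0.0426) and with sex as a covariate (adjusted p = 0.0273). The 1 other gene up became 2 with the likelihood-ratio test, 4 with upper-quartile factors, 5 with total counts, 2 with at least 10 counts in every library, 2 with sex as a covariate and 3 in 1 fit over all libraries. It became 0 with all genes of at least 1 count, batch as a covariate, the litter block, batch 1, batch 2, the shallowest libraries left out and 0.001. The 8 down became 4 with total counts, 5 with at least 1 count, 3 with the litter block, 4 with the letter block, 2 in batch 2 and 4 at 0.001. Leaving out 1 embryo gave 2 members up, 0 down, 0 to 2 other genes up and 5 to 8 down.

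Between dKO-E and cKO-E, which share no litter, the 5 members up became 0 in batch 2 and 1 at 0.001, and the 1 down became 0 in batch 2. With sex as a covariate, *Dll1* (adjusted p = 0.0130) and *Hes1* (adjusted p = 0.000605) were also called up. *Rbpj* lost its call with the letter block (adjusted p = 0.0748) and in batch 1 (adjusted p = 0.0652), where *Dll1* was called up (adjusted p = 0.0427). The 4 other genes up became 7 with total counts, 2 in batch 1, 0 in batch 2, 2 without the shallowest libraries and 0 at 0.001. The 5 down became 1 in batch 2, 3 without the shallowest libraries and 1 at 0.001. Leaving out 1 embryo gave 4 to 6 members up, 1 down, 2 to 5 other genes up and 3 to 7 down.

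Log2 fold changes that turned sign were not called, apart from *Jag1* in cKO-E (-0.021 in batch 2). In cKO-E, *Notch3* became 0.0023 with upper-quartile factors, 0.0108 with total counts, 0.000533 with batch as a covariate, 0.105 with the letter block and 0.0677 in batch 1, and ranged from -0.0573 to 0.0305 without 1 embryo. In dKO-E compared with ctrl, batch 2 gave -0.158 for *Notch1*, -0.135 for *Notch2*, 0.137 for *Dll3* and -0.254 for *Hey1*. *Dll1* became 0.0377 with total counts, 0.0133 with sex, 0.104 with the litter block and 0.0607 in batch 1, and *Jag1* became 0.0767 with the litter block. *Hes1* became 0.0609 with total counts, 0.0364 with batch, 0.0903 with sex, 0.458 with the litter block, 0.0877 with the letter block, 0.24 in batch 1 and 0.0692 without the shallowest libraries. *Hes5* became 5.13e-05 with upper-quartile factors, 0.0693 with total counts, 0.0394 with the letter block and 0.0538 in batch 1. Without 1 embryo, the ranges were -0.15 to 0.0489 for *Hes1*, -0.114 to 0.0669 for *Hes5*, -0.0254 to 0.0386 for *Notch1* and -0.0279 to 0.0330 for *Notch2*. Between the mutants, *Dll1* was -0.179 in batch 2.

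Title letters did not pair embryos (same-letter correlation of deviations -0.609 to 0.39). Beyond the changes given here and in the report, the litter block changed no other member's call.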
